A study of Mus musculus with 18 samples.

Results

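The 91 genes described here are the protein-coding mouse genes on chromosomes 1 to 19 whose symbol starts with Kcn, leaving out Kcnq1, out of 20665 protein-coding genes on those chromosomes. They were chosen by symbol alone, and 2 further Kcn genes on chromosome X were left out. A CpG site was counted for a gene when it lay inside the gene body or within 5 kb of it on GRCm38. The assay was reduced representation bisulfite sequencing (RRBS), in which DNA is cut with MspI at CCGG and the share of methylated reads is counted at each CpG. The samples were taken from male C57BL/6 offspring at 3 weeks of age, and they are liver, hypothalamus and gonadal adipose tissue. One group came from dams that were given 5 mg/kg bisphenol A (BPA) in corn oil by gavage on each day from 1 to 20 days after conception, and the other from dams given corn oil alone. Each tissue had 3 samples per group, 18 in all. All dams were kept on the 5V01 diet, which is low in estrogenic isoflavones, and in polycarbonate-free cages, and the offspring then ate standard chow. There were 4 BPA litters and 3 control litters, and which litter gave which sample was not used here.

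The deposited tables join the 3 samples of a group into 1 pool of reads, so each value below belongs to a pool and has no spread between animals. The pools are numbered 0 and 1, and 0 was read as control only because a label names the control group first. If the numbering were the other way round, every direction given for BPA would turn. Tests compare the reads of pools and not animals, so litter and animal cannot be told apart from BPA. Copies made by PCR carry no molecular identifiers here and so are not separate molecules. The intervals below, 95% throughout, cover counting error only. Where 0 reads were methylated, the limit given is instead 3 reads of the total. CpGs on 1 read are not independent either. In bulk tissue, a change in the mix of cells and a change of methylation within a cell cannot be told apart.

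Potassium channels let potassium leave or enter the cell and so set the resting potential and end the action potential. Voltage-gated, calcium-activated, inward rectifier and tandem-pore channels differ in what opens them, and silent and auxiliary subunits alter the channels they join. CpG-rich promoters are usually free of methylation in all tissues, whereas gene bodies and distant elements carry most methylation and most differences between tissues. BPA is a plastic monomer that binds estrogen receptors weakly.

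After a minimum of 10 reads in each pool, 10416 Kcn sites were tested in adipose tissue, 8468 in hypothalamus and 8835 in liver, of 1876099, 1569349 and 1628817 sites. All 91 genes had tested sites in each tissue, from 4 to 329 per gene in adipose tissue with a median of 101. The median depth at Kcn sites was 142 control and 160 BPA reads in adipose tissue, 98 and 102 in hypothalamus, and 137 and 127 in liver. The hepatocyte markers Alb, Apoa1, Fgb, Ttr and Serpina1a had their lowest level in liver in 5 of 5 cases, and the neuronal markers in hypothalamus in 4 of 5. The adipocyte markers were lowest in adipose tissue in 3 of 5 cases and in liver in the others. Markers of endothelium and leukocytes were lowest in adipose tissue for 2 of 3 and 2 of 4 genes. Markers of oligodendrocytes and of astrocytes were lowest in hypothalamus for only 1 of 3 genes each.

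The promoters are shown first because most of the promoter windows that the assay covered were nearly unmethylated in every tissue. The windows with tested sites belong to 45 of the 91 genes in adipose tissue, 42 in hypothalamus and 41 in liver. RefSeq lists 93 promoter windows of 300 bases on GRCm38.p6 for 68 of the 91 genes. The MspI motif CCGG, which reads the same on both strands, stood in 63.4% of them, against 52.8% of all 32851 listed windows. Tested sites fell in 47 windows in adipose tissue, of which 38 had a mean level under 5% in the control pool. In hypothalamus 37 of 44 windows were under 5%, and in liver 32 of 43. The median window level in the control pools was 1.26% in adipose tissue, 0.864% in hypothalamus and 1.87% in liver. In the BPA pools it was 1.01%, 1.45% and 1.61%, so hypothalamus was not the lowest there. Examples of windows with called differences between tissues are printed below from 250 bases before the start to 20 after it, together with the window that held the one promoter site called for BPA. Capitals mark the CpGs measured in at least 1 tissue. All sequences are RefSeq reference, 5′ to 3′ on the strand of the gene, and they were chosen after their values were seen.

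Kcne4, chr1:78816661-78816930, plus strand: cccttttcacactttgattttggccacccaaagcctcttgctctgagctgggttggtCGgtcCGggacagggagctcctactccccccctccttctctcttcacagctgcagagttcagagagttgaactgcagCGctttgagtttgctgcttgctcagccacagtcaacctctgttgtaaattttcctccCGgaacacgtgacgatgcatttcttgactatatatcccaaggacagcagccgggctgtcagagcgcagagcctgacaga

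Kcnk18, chr19:59219398-59219667, plus strand: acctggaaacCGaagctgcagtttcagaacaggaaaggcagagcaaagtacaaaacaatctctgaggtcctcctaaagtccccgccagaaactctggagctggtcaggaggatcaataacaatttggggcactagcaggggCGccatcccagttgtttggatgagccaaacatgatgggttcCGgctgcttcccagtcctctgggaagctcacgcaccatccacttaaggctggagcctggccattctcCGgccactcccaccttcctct

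Kcnn4, chr7:24370013-24370282, plus strand: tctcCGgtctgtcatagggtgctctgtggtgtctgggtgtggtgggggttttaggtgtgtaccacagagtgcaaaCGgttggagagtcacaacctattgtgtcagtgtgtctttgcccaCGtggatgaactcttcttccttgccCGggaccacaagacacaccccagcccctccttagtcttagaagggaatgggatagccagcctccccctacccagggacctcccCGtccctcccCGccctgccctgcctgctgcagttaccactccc

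Kcnj13, chr1:87394710-87394979, minus strand: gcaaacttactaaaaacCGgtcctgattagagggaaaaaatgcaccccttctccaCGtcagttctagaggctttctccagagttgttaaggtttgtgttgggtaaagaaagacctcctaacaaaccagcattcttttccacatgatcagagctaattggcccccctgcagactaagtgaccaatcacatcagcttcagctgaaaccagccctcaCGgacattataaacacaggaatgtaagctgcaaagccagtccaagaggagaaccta

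Kcnip2, chr19:45816044-45816313, minus strand: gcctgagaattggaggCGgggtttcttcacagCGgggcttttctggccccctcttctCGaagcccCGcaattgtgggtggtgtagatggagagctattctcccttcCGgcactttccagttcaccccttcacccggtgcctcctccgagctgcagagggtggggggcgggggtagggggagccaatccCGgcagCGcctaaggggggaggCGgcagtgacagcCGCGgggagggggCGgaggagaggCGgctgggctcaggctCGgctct

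Kcnip1, chr11:33843667-33843936, minus strand: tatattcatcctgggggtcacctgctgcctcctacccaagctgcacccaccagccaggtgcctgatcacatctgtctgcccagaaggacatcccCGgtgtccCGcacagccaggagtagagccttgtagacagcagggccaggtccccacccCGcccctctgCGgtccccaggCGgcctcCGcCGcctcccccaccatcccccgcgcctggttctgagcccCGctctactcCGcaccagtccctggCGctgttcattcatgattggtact

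The window of Kcne4, an auxiliary subunit that inhibits several voltage-gated channels, was least methylated in adipose tissue. Its CpG 59 bases before the start was methylated in 43.0% of 230 control reads in adipose tissue, 62.4% of 157 in hypothalamus and 85.3% of 251 in liver. The CpG 116 bases before the start read 39.5%, 63.8% and 65.3% in the same order. Adipose tissue was lower than both other tissues at each of these 2 sites (Fisher's exact test on control reads, adjusted over all sites), and liver exceeded hypothalamus at the first of them. Over 22 sites of Kcne4 measured in all 3 tissues, the mean level was 60.4% in adipose tissue, 79.1% in hypothalamus and 81.7% in liver, the same order of means as in the promoter.

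Kcnk18 encodes a calcineurin-regulated background channel of sensory neurons. All 4 measured CpGs of its window were more methylated in hypothalamus, from 74.0% to 94.4% in the control pool, than in adipose tissue, from 44.0% to 55.2%, and each of the 4 was called. Liver split along the window. At 240 bases before the start liver read 39.7% of 146 reads, while at the last base before the start it read 89.9% of 138, so the adipose level lay above liver at one end and below it at the other, although only the 2 CpGs nearest the start were called between these tissues. Kcnn4, the intermediate-conductance calcium-activated channel of blood cells and epithelia, was likewise highest in hypothalamus. Its CpG 175 bases before the start read 20.2% in adipose tissue, 47.5% in hypothalamus and 22.5% in liver, and the 4 CpGs measured in every tissue were called between hypothalamus and each other tissue.

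The inward rectifier Kcnj13, known from the retinal pigment epithelium and the choroid plexus, went the other way, with a window mean of 57.9% in adipose tissue, 37.6% in hypothalamus and 70.7% in liver. Its depth was low, from 17 to 24 control reads per CpG in hypothalamus. Only the CpG 232 bases before the start was called between hypothalamus and both other tissues, at 54.2% against 89.9% in adipose tissue and 88.0% in liver. Kcnip2, which encodes a calcium-binding subunit of the A-type channels, was nearly unmethylated in adipose tissue and hypothalamus. In liver its CpG 13 bases before the start read 14.8% of 203 reads, against 2.0% in each other tissue, and the CpG 44 bases after the start, beyond the printed stretch, read 24.2% against 7.3% in adipose tissue and 3.6% in hypothalamus. Both were called as higher in liver. The window of Kcna7, not printed, read 35.7%, 45.2% and 23.0% over its 2 CpGs in adipose tissue, hypothalamus and liver.

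**Figure D1:**
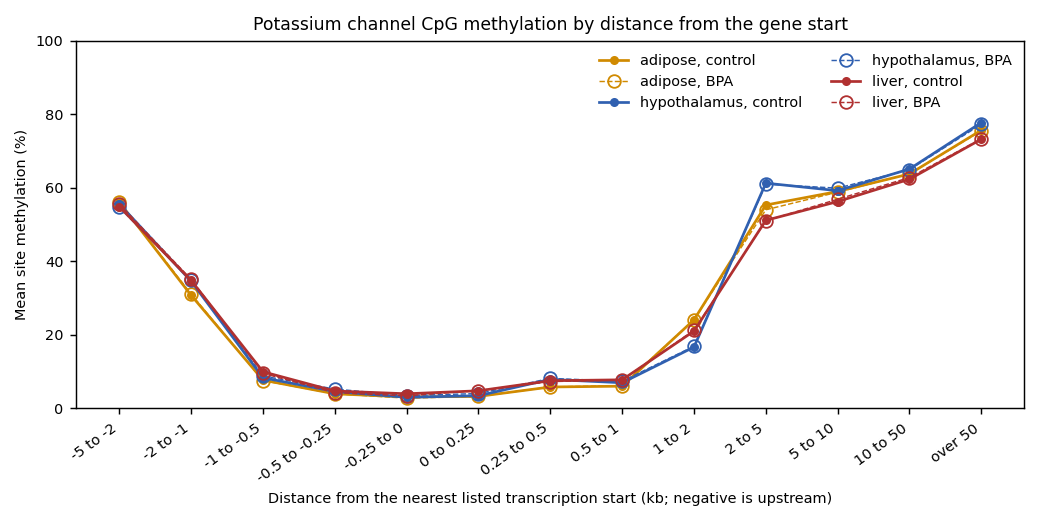
Mean methylation (%, y axis) of Kcn CpG sites in bins of distance from the nearest RefSeq start (kb, x axis; bins of unequal width), for the genes with a listed start. Filled points with solid lines are control pools and open points with dashed lines BPA pools. Adipose control levels run from 3.14% in the 250 bp before the start to 75.7% beyond 50000 bp, and the tissues and treatments follow one course.

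Away from the start, methylation climbed in all 3 tissues, as the plot by distance shows. In the adipose control pool the mean level was 3.14% in the 250 bp before the start, 24.1% from 1000 to 2000 bp after it, 55.3% from 2000 to 5000 bp and 75.7% beyond 50000 bp. The Kcn sites as a whole were less methylated than all sites: the mean site level in adipose tissue was 39.2% against 50.3%, and 50.5% of Kcn sites were under 20% against 38.0% of all sites.

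Gene levels, taken as methylated reads over all reads of a gene's tested sites, covered nearly the whole scale. The median over the 91 genes was 41.8% in the adipose control pool, 39.0% in hypothalamus and 41.1% in liver. At the bottom stood Kcna1, a voltage-gated channel of axons, with 1.39% in adipose tissue (interval 1.25% to 1.54%), 1.16% in hypothalamus and 1.81% in liver over 129, 116 and 119 sites. In the hypothalamus control pool the lowest gene was Kcns2, a silent subunit, at 0.543% over 46 sites. All sites under 1% in each pool of the 2 other tissues read 0.459% in that pool, close to the level of Kcns2. In the BPA pool of hypothalamus Kcns2 read 1.19%. At the top among genes with at least 20 sites in each tissue were Kcnu1, the sperm-specific potassium channel, with 86.3% in adipose tissue, and Kcnj1, the renal outer medullary channel, with 90.1% in hypothalamus and 87.5% in liver.

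**Figure D2:**
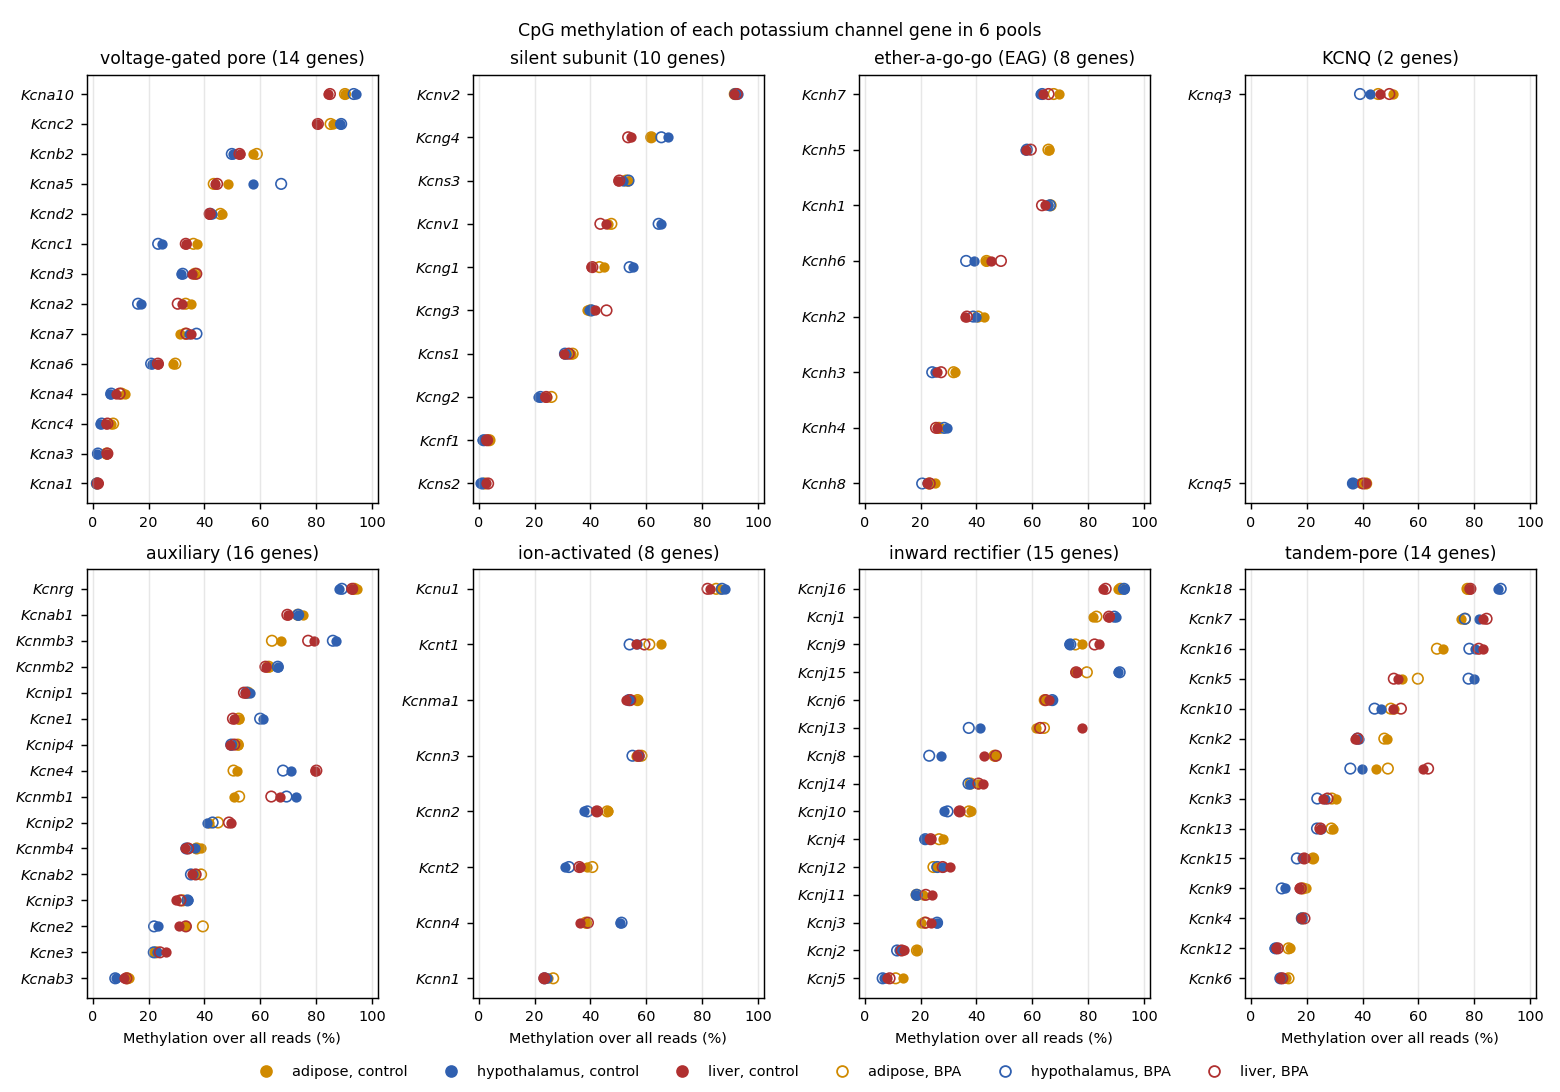
Methylation over all reads (%, x axis) of 87 of the genes (y axis), one panel per family. Filled circles are control pools and open circles BPA pools, coloured by tissue; counting intervals are left out. Most genes hold one place on the scale in all 6 pools, from Kcna1 near 1% to Kcnrg near 90%, while Kcne4, Kcnmb1, Kcnk18 and Kcnj13 spread by tissue.

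By family, the median adipose gene level was lowest in the voltage-gated pore genes (35.7%, 16 genes) and the tandem-pore genes (37.7%, 14 genes). It was 39.6% in the 4 Kcnq genes, 40.7% in 15 inward rectifiers, 41.9% in 10 silent subunits, 43.0% in 8 ether-a-go-go genes, 51.2% in 16 auxiliary genes and 51.4% in 8 ion-activated genes. Some families held genes at both ends, such as Kcna1 and Kcna10 (90.4%) among the voltage-gated pores, and Kcnj5 (13.6%) and Kcnj16 (90.7%) among the inward rectifiers. The member with the most tested adipose sites read 24.5% for the silent subunit Kcng2 and 32.2% for Kcnh3. The corresponding levels were 55.0% for Kcnip1, 56.7% for the large-conductance calcium-activated channel Kcnma1, 28.1% for the inward rectifier Kcnj4 and 14.1% for Kcnk12. These orders describe which CpGs were covered as well as the genes, since a gene with many sites near its start reads low.

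Between tissues, single sites differed at a rate close to that of the genome. Of 8396 Kcn sites covered in the control pools of both hypothalamus and adipose tissue, 1030 were called at an adjusted p under 0.05 and a difference of at least 5 percentage points, which is 12.3% against 12.9% of all sites. In hypothalamus 717 of them were higher and 313 lower, against 9.08% and 3.79% of all sites. Between liver and adipose tissue 1302 of 8756 were called (14.9% against 16.5% of all sites), 570 higher and 732 lower in liver (8.42% and 8.06% of all sites). Between liver and hypothalamus 1416 of 7952 were called (17.8% against 16.9%), 423 higher and 993 lower in liver (5.72% and 11.2% of all sites). Lower sites made up 30.4%, 56.2% and 70.1% of the Kcn calls in this order, against 29.4%, 48.9% and 66.1% of all calls. The balance of directions was not tested. With a minimum difference of 20 points, 500, 544 and 649 sites were called in these 3 comparisons, against 6.63%, 7.64% and 8.19% of all sites. In the BPA pools of the same tissues, 62.7%, 55.9% and 63.8% of these calls were made again in the same direction.

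Over the 7901 sites measured in all tissues, 90 genes had at least 5. Their control level, taken here as the unweighted mean of sites, was lowest in liver for 43 genes, in adipose tissue for 31 and in hypothalamus for 16. The lowest tissue was the same one in the BPA pools for 75. Over all reads the lowest tissue can be another one. Kcnn2, lowest in liver by the mean of sites, read 46.5% in adipose tissue, 37.6% in hypothalamus and 42.2% in liver over all reads. By the mean of sites, the gap between the lowest and the highest tissue was small for most, with a median of 3.93 points. It passed 10 points in 15 genes. The widest gaps were in Kcnj13 (33.1 points) and Kcnmb1, the smooth muscle subunit of the large-conductance channel. Kcnj13 rested on the 5 sites of its promoter window, with 99 control reads in all in hypothalamus. Kcnmb1 read 46.2% in adipose tissue, 71.5% in hypothalamus and 62.2% in liver over 13 sites. Kcnmb1 and its flanks lie inside the body of Kcnip1, so these sites count for both genes. Next stood Kcne4 (21.4 points), Kcnmb3, another subunit of that channel (18.4 points, lowest in adipose tissue), Kcnk5, an acid-sensitive background channel (18.2 points, lowest in liver), and Kcne1, the partner of the slow cardiac channel (15.2 points, lowest in liver). These 6 were named after their values were seen.

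**Figure D3:**
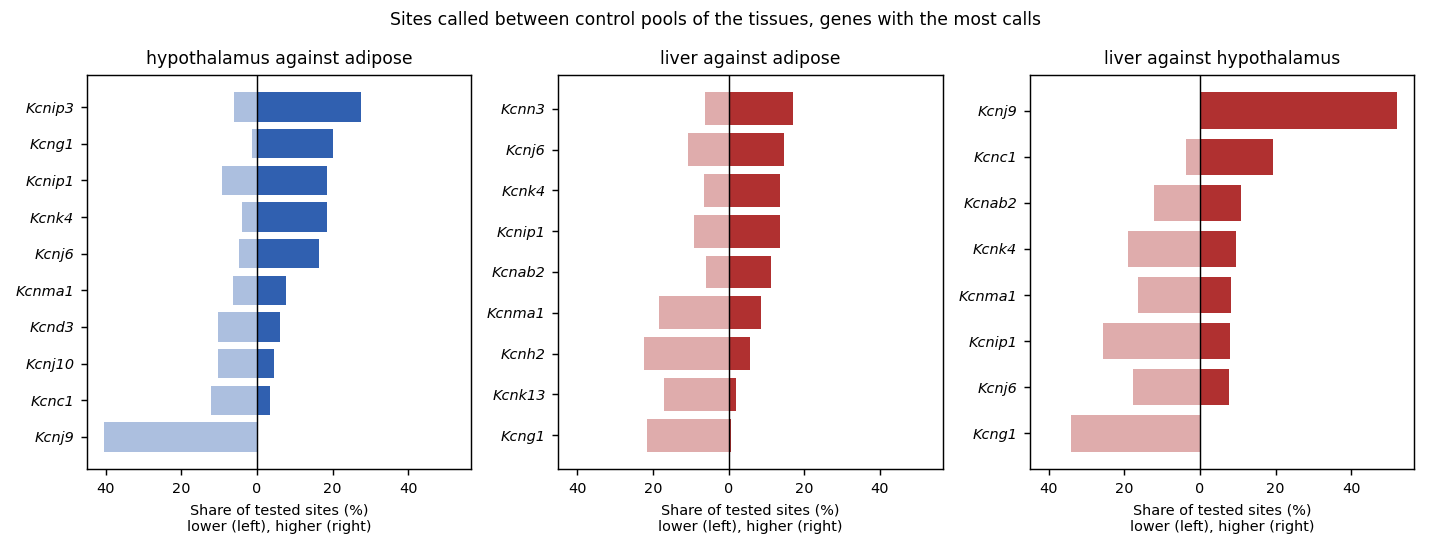
Share of a gene's tested sites (%, x axis) called higher (dark, right) or lower (pale, left) in the first tissue of each panel title than in the second, control pools. Genes (y axis) are those shown of the 6 with the most calls in each direction. Kcnj9 and Kcng1 stand on one side in the comparisons with hypothalamus.

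Among the genes with the most calls, Kcnj9 and Kcng1 were the most one-sided. Kcnj9 encodes a subunit of the G protein-gated inward rectifiers of neurons. Of its 52 sites covered in hypothalamus and adipose tissue, 21 were lower in hypothalamus and 0 higher, and of 48 covered in liver and hypothalamus 25 were higher in liver and 0 lower. The 21 sites lay between chr1:172318261 and chr1:172319348, past the 3′ end of Kcnj9 and inside the body of the neighbouring gene Igsf8, so they belong to Kcnj9 only by distance. At chr1:172318601, 85.0% of 638 reads were methylated in adipose tissue, 62.9% of 334 in hypothalamus and 94.5% of 436 in liver (adjusted p = 1.95e-12 and 5.22e-27 against hypothalamus, Fisher's exact test). Within 500 bp of it, the mean over 29 shared sites was 87.6%, 73.9% and 92.6% in that order. Hypothalamus was called lower than adipose tissue at 20 of 30 sites there, and lower than liver at 25 of 29.

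Kcng1 is a silent subunit that joins delayed rectifier channels, and hypothalamus was its most methylated tissue. It had 31 sites higher and 2 lower in hypothalamus than in adipose tissue, and 50 lower and 0 higher in liver than in hypothalamus. Liver also lay below adipose tissue at 34 of 157 sites and above it at 1. At chr2:168281833, in the flank of the gene, the level was 5.11% of 372 reads in adipose tissue, 34.6% of 191 in hypothalamus and 4.59% of 392 in liver (Fisher's exact test, adjusted p = 4.04e-17 and 7.07e-19). The mean over 24 sites around it was 18.6%, 31.4% and 14.4%.

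Other genes held short stretches set apart in 1 tissue. Kcnd3, a pore subunit of the A-type current, had a stretch 53946 bp into the gene where 10 of 10 sites were lower in hypothalamus than in adipose tissue. At chr3:105505836 the level was 83.8% of 401 reads in adipose tissue and 30.3% of 228 in hypothalamus, an interval of the difference from -60.0 to -46.1 points. The mean over the 10 sites was 37.4% in hypothalamus and 77.0% in liver, and liver was higher than hypothalamus at all 10. Kcnip1, a calcium-binding partner of those same pore subunits, showed the like within its body. Around chr11:33756944, 13 of 14 sites were lower in hypothalamus, with means of 71.8%, 37.6% and 67.8% in adipose tissue, hypothalamus and liver. Kcnip1 also had 38 sites higher in hypothalamus than in adipose tissue, led by chr11:33932329 with 2.42% against 30.6%.

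Kcnj10, the inward rectifier of astrocytes and oligodendrocytes, was lower in hypothalamus at 14 of 134 sites and higher at 6. At chr1:172359389 in its body the level was 75.2% in adipose tissue and 33.9% in hypothalamus. Around chr1:172342729, 1519 bp into the gene, 5 of 5 sites were lower in hypothalamus than in both other tissues, with means of 51.4% against 78.4% in adipose tissue and 80.2% in liver. Kcnip3, a calcium sensor also known as a transcriptional repressor, was instead higher in hypothalamus at 31 of 113 sites, led by chr2:127481812, 687 bp after a listed start, with 13.0% in adipose tissue and 69.8% in hypothalamus. Kcnc1, a fast delayed rectifier, was lower in hypothalamus at 22 of 180 sites and higher at 6, led by chr7:46398440 with 77.6% against 45.0%.

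Liver stood apart from adipose tissue at other genes. Kcnh2, the channel of cardiac repolarisation, was lower in liver than in adipose tissue at 27 of 121 sites and higher at 7. The leading lower site, chr5:24325097, read 83.9% in adipose tissue and 49.8% in liver. It lies 4494 bp after a listed start that is itself inside the gene body. Kcnj6, a G protein-gated inward rectifier, read 17.6% in adipose tissue and 68.1% in liver at chr16:94792882. Kcnma1, with calls in both directions, was more often lower than higher in liver, at 43 sites against 20 compared with adipose tissue.

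Prenatal BPA was set against control within each tissue. In adipose tissue 62 Kcn sites were called, of which the BPA pool was higher at 29 and lower at 33. That is 0.595% of the Kcn sites, against 0.535% of all sites, so the potassium channel genes were called at about the rate of the genome. The same held by direction, with 0.252% of all sites called higher and 0.283% lower. In hypothalamus 0 of 8468 Kcn sites were called, against 0.00599% of all sites, and 298 (3.52%) had an unadjusted Fisher p under 0.05 against 3.41% of all sites. In liver 2 were called, against 0.0259% of all sites. Both were higher (0.0181% of all sites) and 0 were lower (0.0078%).

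Reads varied between pools by more than counting error. Over sites with levels of 10% to 90%, the squared difference in units of its counting error averaged 2.10 in adipose tissue, 1.21 in hypothalamus and 1.28 in liver over all sites, and 2.25, 1.26 and 1.30 over Kcn sites. When each p was scaled by this excess, 0 Kcn sites were called in any tissue. The smallest scaled adjusted p was 0.825 in adipose tissue and 0.107 in liver. The excess holds any true difference along with the spread between animals, and the calls below rest on pooled reads alone.

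**Figure D4:**
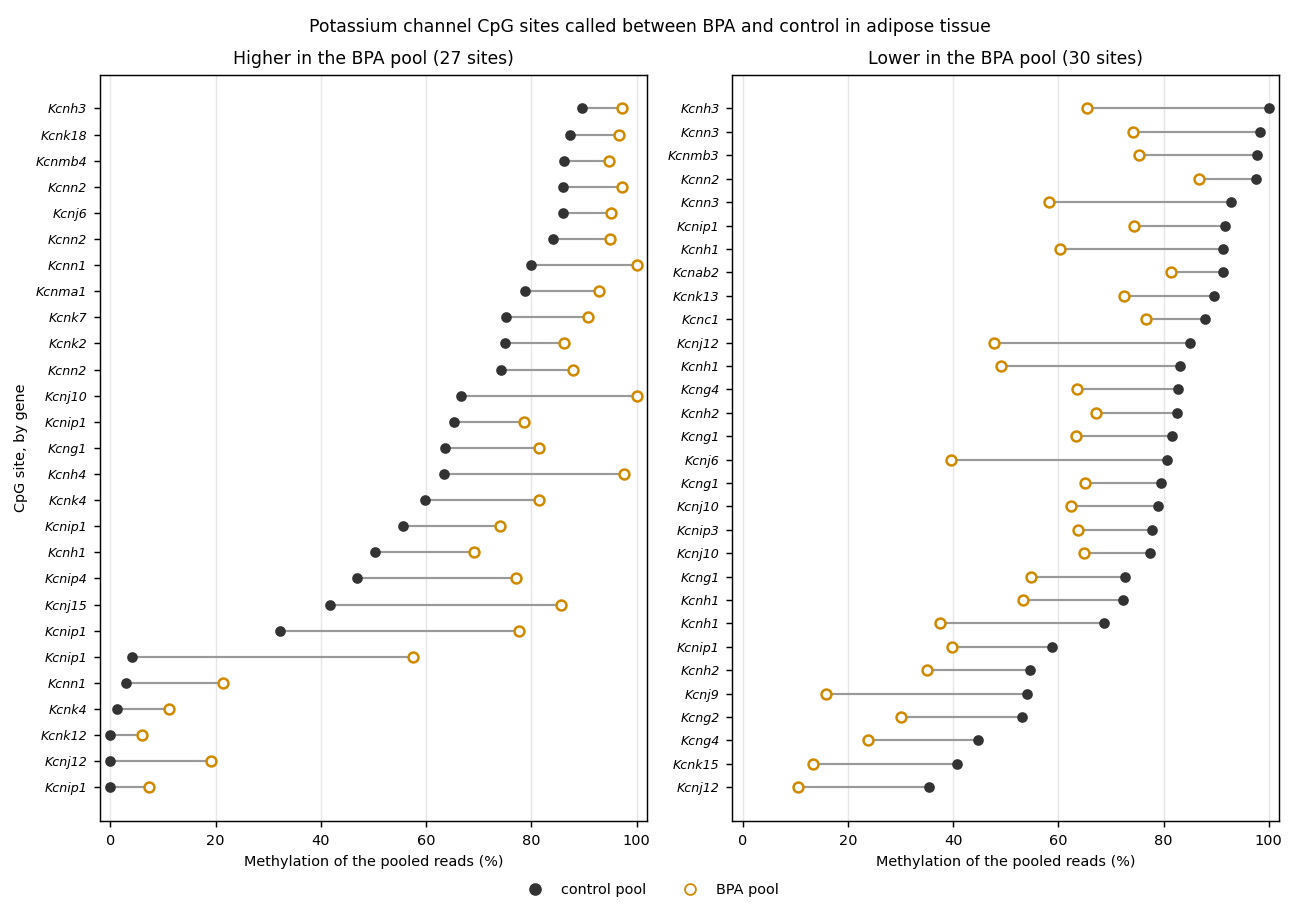
Methylation of the pooled reads (%, x axis) at 57 of the Kcn sites called in adipose tissue, each row 1 site under its gene name (y axis). Filled circles are the control pool, open circles the BPA pool, and lines join them. The 6 plotted sites under 20% in the control pool could only be called higher, and 16 of the 22 over 80% are called lower.

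Cell type markers also had called sites in adipose tissue, where 0.535% of all sites were called. Endothelium had 5 of 182 (2.75%), all lower and all in Pecam1. Hepatocytes had 1 of 38 (2.63%), higher, and oligodendrocytes 6 of 284 (2.11%), all lower. The counts were 1 of 91 for leukocytes (1.10%), 1 of 154 for adipocytes (0.649%), 3 of 1257 for neurons (0.239%) and 1 of 127 for astrocytes (0.787%). The part of a changed cell mix in the channel results was not tested.

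The 62 adipose sites lay in 34 genes, 12 with higher sites only, 12 with lower sites only and 10 with both. The median size of the difference was 18.4 points, from 6.05 to 53.4. Of the called sites, 48.4% were at 20% to 80% in the control pool, against 20.9% of tested Kcn sites. All 8 called sites under 20% were under 5%, where a call of at least 5 points can only be higher. Of 24 over 80%, 18 were lower, and there the room to rise is limited. Of 14 sites that differed by at least 30 points, 12 had a pool with under 100 reads. Gene bodies held 51 of the 62, or 82.3%, as they did 82.6% of the tested sites. Neighbouring CpGs within 100 bp differed in the same direction in 153 of 229 cases (66.8%), against 70.3% for all called adipose sites.

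By family, called sites numbered 10 of 1091 in ether-a-go-go genes, 12 of 1477 in auxiliary genes, 10 of 1311 in inward rectifiers, 9 of 1295 in ion-activated genes, 7 of 1098 in silent subunits, 8 of 1505 in tandem-pore genes, 2 of 618 in Kcnq genes and 4 of 2021 in voltage-gated pores. The shares ran from 0.198% in the voltage-gated pores to 0.917% in the ether-a-go-go genes, around the 0.535% of all sites. Other channel genes had 14 of 1510 sites called for sodium channels (0.927%), 35 of 5119 for calcium channels (0.684%) and 3 of 617 for the Hcn pacemaker channels (0.486%). Listed partners of potassium channels, such as Abcc8 and Dpp6, had 8 of 1388 (0.576%). All of these lists had 0 calls in hypothalamus, and in liver 1 calcium channel site and 1 partner site were called.

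Among the voltage-gated pores, Kcnc1 fell at chr7:46403143, 6675 bp after its listed start, from 87.8% of 304 control reads to 76.6% of 350 BPA reads. The 16 genes of this family held the fewest calls for their number of sites.

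The silent subunits had 6 sites called lower and 1 higher, in 3 of the 10 genes, and the balance of directions was not tested. In Kcng4 the leading site, chr8:119633252, fell from 44.8% of 290 reads to 23.9% of 309 (Fisher's exact test, adjusted p = 0.000343, interval -28.1 to -13.3 points). It lay 2428 bp into the gene, and 12 of its 13 neighbours within 100 bp were also lower, with a median of -8.6 points. Within 500 bp, 22 of 41 sites were lower and 19 higher, and the mean was 62.3% in the control and 60.7% in the BPA pool. A second site within 259 bp, chr8:119632994, fell from 82.7% to 63.5%, but 5 of its 12 neighbours were lower. Neither site differed in hypothalamus or liver at an unadjusted p under 0.05. Log odds ratios for BPA were compared between adipose tissue and each other tissue by a Wald test, adjusted over all sites tested in both. Against hypothalamus the adjusted p was 0.693 at chr8:119633252 and 0.202 at chr8:119632994, and against liver 0.202 and 0.414. A difference between adipose tissue and the other tissues was thus not shown at either site. Kcng1 fell at 3 sites and rose at 1, led by chr2:168262327 from 81.6% of 293 reads to 63.3% of 267. Kcng2 fell at chr18:80366126, outside the gene body, from 53.1% to 30.2%.

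The ether-a-go-go genes had 7 sites called lower and 3 higher, in 4 of 8 genes. Kcnh1, a channel of the brain, had 5 called sites spread over 286985 bp, 4 of them lower. The leading one, chr1:192476456, fell from 68.6% of 121 reads to 37.5% of 120 (Fisher's exact test, adjusted p = 0.00294) and had no tested neighbour within 100 bp. In Kcnh2, both sites of a 21 bp stretch fell, in a stretch that also lies in Gm15589, chr5:24325252 from 54.6% of 218 reads to 35.0% of 246 and chr5:24325232 from 82.6% to 67.2%. All 10 and all 11 neighbours of the pair were lower. Over the 19 sites around them measured in every tissue, the mean was 73.4% in the control and 63.0% in the BPA pool of adipose tissue, 76.1% and 70.7% in hypothalamus, and 53.7% and 58.1% in liver. In this same stretch the control liver pool lay below the control adipose pool, and both comparisons use that adipose pool. Kcnh3 fell at chr15:99232850 from 100% of 39 reads to 65.5% of 55 and rose at chr15:99241213 from 89.6% to 97.2%. Of the 3 neighbours of the site that fell, 1 was lower, and their median difference was 6.5 points.

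Of the auxiliary genes, Kcnip1 held 7 of the 12 called sites, the most of any Kcn gene, among 254 tested. Of these, 5 rose and 2 fell over a span of 259776 bp. The leading site, chr11:33992460, rose from 55.5% of 281 reads to 74.1% of 316 (Fisher's exact test, adjusted p = 0.00354, interval 10.9 to 25.9 points) 733 bp after a listed start, and its 4 neighbours were higher by a median of 11.8 points. At chr11:33843841, 155 bases before another start, methylation rose from 0% of 184 reads, which allows a level of up to 1.63% (3 reads of the total), to 7.34% of 218. This was the only called site in any of the promoter windows, and it is the first CpG in capitals in the Kcnip1 sequence above. The other 13 measured CpGs of that window lay between 0% and 6.76% in both adipose pools. The largest rise of all, from 4.0% to 57.4% at chr11:33732685, rested on 25 and 47 reads. Another, at chr11:33963471, also lies in Kcnmb1 and rose from 32.3% of 31 reads to 77.6% of 49.

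Kcnip4, of the same calcium-binding family, rose at chr5:49223903 from 46.9% of 130 reads to 77.1% of 131 (Fisher's exact test, adjusted p = 0.00147). Kcnip3 fell at chr2:127463051 from 77.8% to 63.8%. Kcnmb3 fell at chr3:32504612, upstream of the gene, from 97.7% of 86 reads to 75.4% of 122. Kcnmb4 encodes a neuronal subunit of the large-conductance channel. Past its 3′ end, chr10:116413037 rose from 86.1% of 338 reads to 94.7% of 453. Of the 4 neighbours of that site, 2 were also higher, and their median difference was -3.7 points.

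Among the ion-activated channels, Kcnma1 rose at chr14:23671173 from 78.7% of 277 reads to 92.8% of 318 (Fisher's exact test, adjusted p = 0.00177, interval 8.5 to 19.8 points), the only call among its 308 sites. Kcnn1, Kcnn2 and Kcnn3 encode the small-conductance calcium-activated channels that follow the action potential in neurons. Kcnn1 rose at both of its called sites. At chr8:70856794, 214 bp after a listed start inside the gene body, Kcnn1 rose from 2.9% of 138 reads to 21.4% of 154. The 12 neighbours of this site differed by a median of 0.314 points, 7 of them in the same direction. Kcnn2 rose at 3 sites and fell at 1, led by chr18:45590236 from 74.3% to 87.9%. Kcnn3 fell at both of its called sites, within 32 bp, from 92.9% of 56 reads to 58.2% of 55 at chr3:89573750 and from 98.4% to 74.1% at chr3:89573781.

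Of the inward rectifiers, Kcnj10 had the Kcn site with the smallest adjusted p, chr1:172369809. Of its 5 neighbours within 100 bp, 3 went in the same direction, and the median difference over the 5 was 1.1 points. At chr1:172369809 the level rose from 66.7% of 42 reads to 100% of 81 (Fisher's exact test, adjusted p = 0.000257, interval 20.2 to 48.4 points). Further upstream in the gene it fell at chr1:172359568 from 79.0% to 62.4% and at chr1:172359322 from 77.4% to 64.9%, beside the site where control hypothalamus lay below control adipose tissue, a comparison that shares the adipose control pool. The last of these had the largest adjusted p of all called Kcn sites, 0.0499, and the first site outside the threshold was chr5:24322047 in Kcnh2, which went from 92.9% to 83.1% (0.0507). Kcnj12, a channel that holds the resting potential of muscle, rose at chr11:61023360 from 0% of 62 reads, which allows up to 4.84% (3 reads of the total), to 19.1% of 68 and fell at 2 sites within 1962 bp, from 85.0% to 47.8% and from 35.5% to 10.6%. Kcnj6 fell at chr16:94995028 from 80.6% of 36 reads to 39.7% of 68 and rose at chr16:94828272 from 86.0% to 95.2%. Kcnj9 fell at chr1:172323137 from 54.0% of 50 reads to 15.8% of 57.

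The tandem-pore channels carry the background potassium current. They had 6 sites called higher and 2 lower, in 7 of 14 genes. Kcnk15 fell at chr2:163858400 from 40.7% of 108 reads to 13.4% of 119, although only 3 of its 11 neighbours were lower. Kcnk7 rose at chr19:5708378, inside the neighbouring gene Ehbp1l1, from 75.2% to 90.8%. Kcnk4, a mechanosensitive channel of neurons, rose at chr19:6938233 from 59.8% of 107 reads to 81.4% of 199 and, past its 3′ end near Catsperz and Esrra, at chr19:6925520 from 1.24% of 161 to 11.1% of 189. Of the remaining genes with 1 call each, named after their values were seen, Kcnk18, Kcnk2, Kcnk12, Kcnj15 and Kcnh4 rose, and Kcnk13 and Kcnab2 fell.

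Kcnk4 was also the only Kcn gene called in liver. At chr19:6938533 liver rose from 47.1% of 104 control reads to 79.2% of 106 BPA reads (Fisher's exact test, adjusted p = 0.00786, interval 19.2 to 43.6 points), and at chr19:6938244 from 50.5% of 188 to 74.3% of 171 (Fisher's exact test, adjusted p = 0.0164, interval 13.8 to 33.0 points). The sites lie 4018 and 3729 bp before the Kcnk4 start, inside the body of Gpr137 and within 5 kb of Bad, so they belong to Kcnk4 only by distance. The site that rose in adipose tissue lies beside the second, at 3718 bp before the start. At the second site the adipose pools read 54.7% of 201 and 69.8% of 291; the BPA pool of hypothalamus read 35.9% of 131 reads and was lower than its control pool by 4.1 points. At the first site adipose tissue read 77.6% and 77.1% and hypothalamus 64.8% and 65.6%. Among the 18 sites within 500 bp of the first site, 13 were higher in the BPA pool of liver and 9 in that of adipose tissue.

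**Figure D5:**
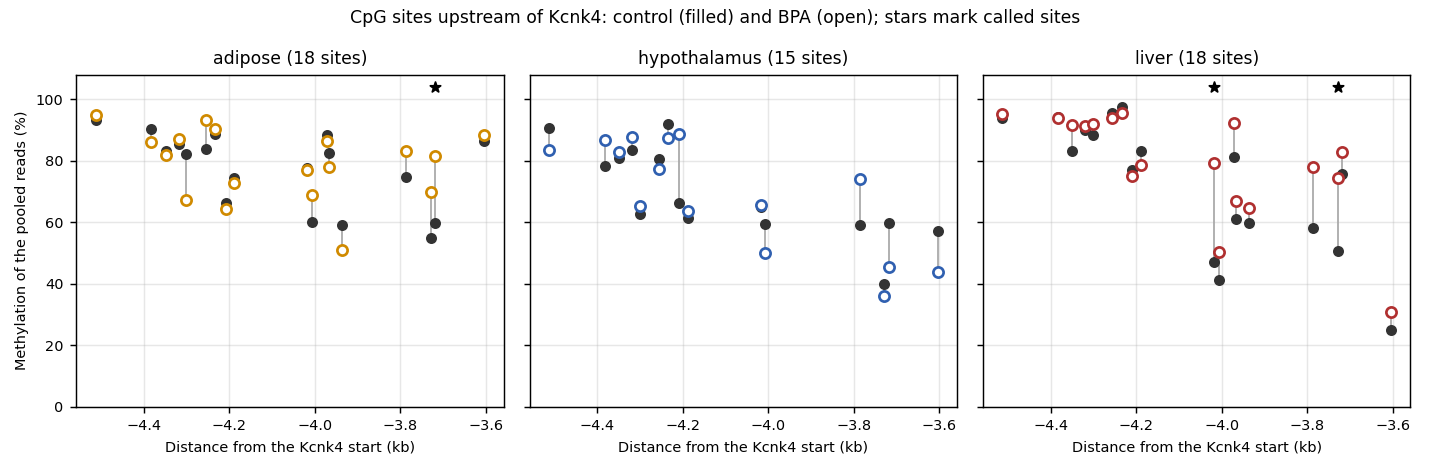
Methylation of the pooled reads (%, y axis) at CpG sites upstream of Kcnk4 by distance from its start (kb, x axis), one panel per tissue. Filled circles are control pools, open circles BPA pools, and stars mark called sites. Liver rises by 32.1 and 23.8 points at its starred sites, and hypothalamus has none.

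The rises at these liver sites were set against the adipose differences by a Wald test of the 2 log odds ratios, adjusted over all sites of both tissues. The adjusted p was 0.133 at chr19:6938533 and 0.908 at chr19:6938244, so a difference between the tissues was not shown. In hypothalamus the 3 Kcn sites with the smallest p were chr1:189225034 in Kcnk2, a mechanosensitive background channel, from 98.9% of 95 reads to 82.7% of 75, chr5:24325097 in Kcnh2, from 84.6% of 130 to 65.4% of 127, and chr19:6928017 in Kcnk4, from 40.7% of 54 to 10.2% of 49. Their adjusted p were 0.348, 0.758 and 0.833. A shift over all hypothalamus sites accompanied them at low levels, seen at sites under 1% in each pool of the 2 other tissues. Such Kcn sites read 0.576% in the control and 0.943% in the BPA pool of hypothalamus, and all such sites 0.459% and 0.868%. Liver moved the other way, from 1.10% to 0.970% over such Kcn sites and from 0.755% to 0.578% over all. Adipose tissue read 0.650% and 0.591% over such Kcn sites, and 0.459% and 0.460% over all. The part of these shifts in the results was not tested.

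Of the 62 sites called in adipose tissue, 55 were tested in hypothalamus, where 32 (58.2%) differed in the same direction, and 59 in liver, where 28 (47.5%) did. The shares over all called adipose sites were 50.1% and 50.5%. Called adipose sites of potassium channel genes thus had no common direction in liver, and in hypothalamus the median difference along the adipose direction was 1.1 points.

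Levels of whole genes differed by a few points between the pools. In adipose tissue the differences ran from -5.50 points in Kcnq3 to 6.10 in Kcne2, which had 309 control reads, with 39 genes higher and 52 lower in the BPA pool. In hypothalamus they ran from -4.96 points in Kcnk7 to 10.1 in Kcna5, which went from 57.3% to 67.5% over 21 sites, with 33 higher and 58 lower. In liver the lowest was -14.8 points in Kcnj13, from 77.6% of 161 reads to 62.8% of 215 over the 5 sites of its promoter window. Of the genes in liver, 57 were higher and 34 lower. Deep sites weigh more in these levels, so a shift of depth between sites also moves them. As unweighted means of the sites measured in all tissues, Kcnq3 went from 40.9% to 39.9% and Kcne2 from 35.6% to 41.9% in adipose tissue. In hypothalamus Kcnk7 went from 76.7% to 73.7% and Kcna5 from 46.3% to 51.1%, and in liver Kcnj13 from 70.7% to 62.0%. The mean difference over Kcn sites was -0.173 points in adipose tissue, 0.0325 in hypothalamus and -0.00304 in liver. None of these gene levels was tested, since the pools give no spread between animals, and they were named after their values were seen.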

How the data were processed

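Reduced representation bisulfite libraries were made from 100 ng of DNA of each of 18 samples, per the labels' protocols. Reads were aligned with BSMAP to GRCm38 (mm10), per the submitters' processing notes; versions and any removal of PCR copies are not given in the sources used here. The authors deposited 1 table per tissue with, per the file headers, the read count at each CpG in both pools, the methylated fraction, a Fisher p-value and a credible difference. Each row joins both strands over 2 bp, and listed sites had at least 3 reads in each pool. Kcn sites had median depths of 98 to 160 reads.

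Sites under 10 reads in a pool were dropped, and methylated reads were rebuilt from count and fraction. Fisher's exact test (two-sided) was taken from the deposited p-value for BPA and was computed for pairs of control pools. Recomputing the deposited p-value at the Kcn sites came within 2% for 99.8% to 99.9% of them. Adjustment was by Benjamini and Hochberg's method across every nuclear site of a table, and sites were called at an adjusted p under 0.05 and at least 5 points. Intervals are Clopper-Pearson for levels and Newcombe for differences. The Wald test added 0.5 to each cell. No exon or strand annotation was used beyond the RefSeq starts. The test was checked on simulated reads that varied by counting error alone. That check cannot show how the test behaves under the excess seen between these pools. Python 3.11.15, numpy 2.4.6, pandas 2.3.3, scipy 1.17.1 and numba 0.67.0 were used.

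Members and lists were chosen with earlier results of these data known. Genes named for BPA are those with a called site, at most 25 per tissue by number of called sites and then adjusted p, or the 3 sites of smallest p where none was called. For tissue pairs they are the 6 genes with most calls in each direction, and for levels the best covered member of each family and the lowest and highest gene. Alternatives were the read minimum, the minimum difference, the adjustment set, p scaled by the excess over counting error, the credible difference, the deepest sites, gene bodies alone, unweighted levels and the BPA pools. A few members count in the totals but are not reported here by name.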

Additional observations from a re-analysis of the deposited data

Results flagged for a closer look

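The BPA difference at 2 Kcn sites differed between adipose tissue and liver by the Wald test of the 2 log odds ratios, adjusted over the 1615315 sites tested in both tissues, of which 0.0493% passed. At chr14:23671173 in Kcnma1 the BPA pool was 14.1 points higher in adipose tissue and the liver difference was -7.2 points (Wald chi-square test on the reads, adjusted p = 0.00226). At chr10:116413037 near Kcnmb4 it was 8.6 points higher in adipose tissue and the liver difference was -6.4 points (Wald chi-square test on the reads, adjusted p = 0.00111). Kcnma1 encodes the pore and Kcnmb4 a subunit of the large-conductance calcium-activated channel. Both tests rest on pooled reads, and neither liver difference was called on its own. No Kcn site passed this test between adipose tissue and hypothalamus or between hypothalamus and liver.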

How the results depend on the processing

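Other read minimums (20 or 50), minimum differences for BPA, adjustment sets and the loss of the deepest 0.1% of sites kept the count of called Kcn sites within 52 to 66 in adipose tissue, at 0 in hypothalamus and at 2 in liver. With p scaled by the excess over counting error, the counts were 0 in adipose tissue and 0 in liver. The authors' credible difference of at least 5 points picked 353 Kcn sites in adipose tissue (158 higher, 195 lower), 96 in hypothalamus and 97 in liver. With gene bodies alone 51 adipose sites and 0 liver sites were called, since the Kcnk4 liver sites lie upstream of the body. Of the 34 leading adipose sites, 34 stayed called at 20 reads, 28 of the 28 with enough depth at 50 reads, and 0 with the scaled p. A minimum of 20 points left 500, 544 and 649 called sites between hypothalamus and adipose tissue, liver and adipose tissue, and liver and hypothalamus. Median gene levels were 40.02%, 37.6% and 38.2% in adipose tissue, hypothalamus and liver as unweighted means of sites, and 44.8%, 43.7% and 43.7% in gene bodies alone. With sites tested in all tissues the adipose median was 41.6%, and at 20 reads the liver median was 41.2%. No paired analysis was possible because the tables hold pools, and leaving out each replicate was not run for the same reason. Adjustment over 1569349 to 1876099 sites limits calls to large differences or deep sites. With no minimum difference 63 adipose Kcn sites were called, against 62 with the minimum of 5 points. Differences of a few points were thus rarely detected at this depth.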
